A study of Mus musculus with 13 samples.

Results

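Mitochondrial ribosomal protein genes were taken as the rows of the count tables whose symbol is Mrpl or Mrps followed by a number and at most 1 letter from a to c. The rule found 76 genes among 23336 gene symbols, and all 76 were among the 13574 genes abundant enough to be tested. By the current assignment of their proteins, 49 belong to the large subunit of the mitochondrial ribosome and 26 to the small subunit. The remaining gene, Mrps36, keeps its ribosomal name although its protein is now known as a component of the alpha-ketoglutarate dehydrogenase complex. Mrps18a and Mrps30 are named as small-subunit genes, but their proteins sit in the large subunit and were counted there.

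Mitochondria translate the few mRNAs of their own genome, all of which code for membrane subunits of the respiratory chain and ATP synthase, on ribosomes that differ from those of the cytosol. The ribosomal RNAs come from mitochondrial DNA, whereas every protein of these ribosomes is encoded in the nucleus, made in the cytosol and imported. Some of the proteins have counterparts in bacterial ribosomes and others are found in mitochondria alone. Resting B cells that receive an antigen signal enlarge and raise their biosynthetic and respiratory activity before they divide.

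RNA of mouse splenic B cells, purified by depleting cells that carry CD43, was sequenced in 13 libraries. Control cells were Regnase-1+/+ hCD20TamCre and deficient cells were Regnase-1 f/f hCD20TamCre, so that both carried the tamoxifen-activated Cre driven in B cells and differed in the floxed alleles of Zc3h12a, which encodes the RNA-cleaving enzyme Regnase-1. There were 4 control and 3 deficient libraries of naive untreated cells, and 3 libraries of each genotype from cells treated for 4 h with anti-IgM F(ab')2, an antibody fragment that crosslinks the B cell receptor (BCR). The labels as read here give no age, no tamoxifen schedule and no culture time for the untreated cells, so that receptor stimulation and 4 h of culture cannot be told apart.

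Library totals lay between 21407724 and 33244755 counts, and 3 counts stood for 0.0902 to 0.140 CPM (read counts scaled to a common library size and expressed as a share of it). Zc3h12a itself, counted over the whole gene, ranged over 121.0 to 130.6 CPM in the control unstimulated libraries and 89.23 to 110.8 CPM in the deficient ones (log2 -0.32, edgeR adjusted p = 0.106). After stimulation the range was 146.5 to 156.6 CPM with intact alleles and 92.57 to 112.5 CPM with floxed ones (log2 -0.58, edgeR adjusted p = 0.000784). The genotypes did not overlap in either state. All 8 B cell markers found in the tables were detected in every library, and their summed level was 5586 to 6612 CPM in unstimulated and 2679 to 2975 CPM in stimulated libraries. The 2 libraries numbered 1 in deficient cells are called animal 1 here, although the labels do not name animals. They had the highest summed level of erythroid markers in each state, at 1641 CPM unstimulated and 2038 CPM stimulated. Of those 7 markers, 2 had no read in any library. The summed level of myeloid markers was 134.8 to 489.5 CPM in unstimulated and 72.86 to 177.9 CPM in stimulated libraries, and that of plasma cell markers was 229.9 to 536.7 and 207.0 to 483.4 CPM, with animal 1 again highest in each state. T cell markers summed to 24.81 to 60.43 CPM in unstimulated and 56.97 to 93.46 CPM in stimulated libraries. Only 1 of the 7 T cell markers was called higher in each response, and their median log2 change was -0.794 in control and -0.647 in deficient cells. No marker of these 3 lists was at 0. Neutrophil markers summed to 16.11 to 255.1 CPM in unstimulated libraries, highest in control replicate 4, and to 10.17 to 85.31 CPM in stimulated ones. Reads of Xist and Y-linked genes marked 3 of the 4 control and 1 of the 3 deficient unstimulated libraries as female. Stimulated libraries had the same sex as the unstimulated library of the same number and genotype. The part of the marker levels in the results below was not tested. Values without animal 1 are given beside the member counts of the BCR responses. Values with sex as a term of the fit are given beside those of the genotype comparisons within each state.

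The promoters of the 2 members with the largest rise after stimulation in control cells and of 2 with the largest fall are printed here because the members did not all move in the same direction. RefSeq's promoter table (GRCm38.p6) held 67 of the 76 members. Each window runs from 250 bases before to 50 bases after the annotated start, 5′ to 3′ on the gene's strand. Capitals mark exact matches, on either strand, to the core of ETS-family sites (CCGGAAG, or CTTCCGG on the other strand) and to the site of NRF1 (GCATGCGC, or GCGCATGC). Mrpl17 lies at chr7:105811038-105811337 on the minus strand and Mrps6 at chr16:92058086-92058385 on the plus strand. Mrps16 lies at chr14:20393441-20393740 on the minus strand, where the table lists 2 starts and the first was used. Mrpl34 lies at chr8:71464676-71464975 on the plus strand.
Mrpl17: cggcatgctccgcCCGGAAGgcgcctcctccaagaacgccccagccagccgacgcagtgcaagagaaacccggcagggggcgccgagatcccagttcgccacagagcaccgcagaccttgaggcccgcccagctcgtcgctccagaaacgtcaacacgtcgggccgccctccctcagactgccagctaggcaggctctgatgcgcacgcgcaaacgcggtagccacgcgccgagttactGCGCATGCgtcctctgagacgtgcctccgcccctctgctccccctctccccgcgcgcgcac
Mrps6: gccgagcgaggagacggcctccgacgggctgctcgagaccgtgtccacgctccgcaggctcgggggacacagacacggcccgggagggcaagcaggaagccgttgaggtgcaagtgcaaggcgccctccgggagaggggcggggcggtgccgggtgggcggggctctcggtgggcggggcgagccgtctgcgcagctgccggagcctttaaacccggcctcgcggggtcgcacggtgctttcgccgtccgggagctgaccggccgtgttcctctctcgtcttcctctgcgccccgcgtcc
Mrps16: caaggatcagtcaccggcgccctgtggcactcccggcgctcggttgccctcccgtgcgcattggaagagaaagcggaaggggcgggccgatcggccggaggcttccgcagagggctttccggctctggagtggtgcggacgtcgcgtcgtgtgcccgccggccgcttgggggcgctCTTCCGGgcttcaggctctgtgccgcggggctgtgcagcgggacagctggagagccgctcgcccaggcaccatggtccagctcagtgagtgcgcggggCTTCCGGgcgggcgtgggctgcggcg
Mrpl34: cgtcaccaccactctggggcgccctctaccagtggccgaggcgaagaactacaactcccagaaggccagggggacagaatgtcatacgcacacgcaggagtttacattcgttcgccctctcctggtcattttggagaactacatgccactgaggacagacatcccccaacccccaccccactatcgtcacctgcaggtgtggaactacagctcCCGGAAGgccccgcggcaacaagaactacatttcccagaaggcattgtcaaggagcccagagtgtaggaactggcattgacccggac
Mrpl17, a gene that rose, held an ETS core at -237 and an NRF1 match at -11 from its start. Mrps6, which also rose, held none of the 4 motifs searched, which include YY1 and the E-box described next. The windows of both falling genes held the ETS core, at -74 and 25 in Mrps16 and at -37 in Mrpl34. By the GENCODE annotation, Mrps16 begins at 20393634, upstream of the start used here, so both of its matches lie inside the annotated gene.

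Over all members with a promoter entry, the ETS core was present in 24 of 67 (35.8%), against 18.9% of the 9614 tested genes with an entry and 8.86% of all 32851 promoters. It stood in 13 of the 44 promoters of members that rose in control cells, in 4 of the 6 of members that fell and in 7 of the 17 of members not called. The YY1 site (AAGATGGC, or GCCATCTT) was present in 12 members (17.9%), against 4.95% of tested genes and 2.75% of all promoters. The NRF1 site was found in 8 members (11.9%), against 5.81% and 2.71%. The E-box bound by MYC (CACGTG, the same on both strands) was found in 5 members (7.46%), against 11.6% and 7.15%. The median GC content of the members' promoters was 58.0%, against 60.3% for tested genes. A match describes these letters in this window and does not show that a factor binds there.

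The members are spread over 17 chromosomes. A coding gene on the opposite strand that ran away from the member, with no overlap of the starts, began within 1000 bases of the start in 17 of 76 members (22.4%), against 9.83% of 11610 tested coding genes. Examples are Mrps18b with Ppp1r10 at 45 bases, Mrpl49 with Fau at 59 bases, Mrps27 with Ptcd2 at 81 bases and Mrps12 with Sars2 at 172 bases. Exon bases were shared with another annotated gene in 32 members, of which 23 shared them with a coding gene. Without a stated strand setting of the counting, counts of such members may hold reads of the neighbour.

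In unstimulated control cells, the members together had 2043, 2119, 1935 and 1880 CPM in the 4 libraries, a mean of 1994 ± 107.2 (SD, n = 4). Stimulated control cells had 2841, 3000 and 2856 CPM (2899 ± 87.65, n = 3). In deficient cells the sum was 1914, 2076 and 1976 CPM before stimulation (1989 ± 81.83, n = 3) and 2875, 2898 and 3016 CPM after it (2930 ± 75.52, n = 3). Every stimulated library lay above every unstimulated one, and the genotypes overlapped in each state. Both subunits showed the same order. Large-subunit genes summed to 1386 ± 74.37 CPM in control unstimulated and 1986 ± 58.57 CPM in control stimulated libraries. Small-subunit genes summed to 593.4 ± 32.96 and 892.7 ± 32.92 CPM. Members took 0.201 to 0.218% of all counts before stimulation and 0.265 to 0.285% after it. These values are shares of the RNA sequenced, and in bulk samples fewer cells of a type and less RNA per cell cannot be told apart.

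**Figure D1:**
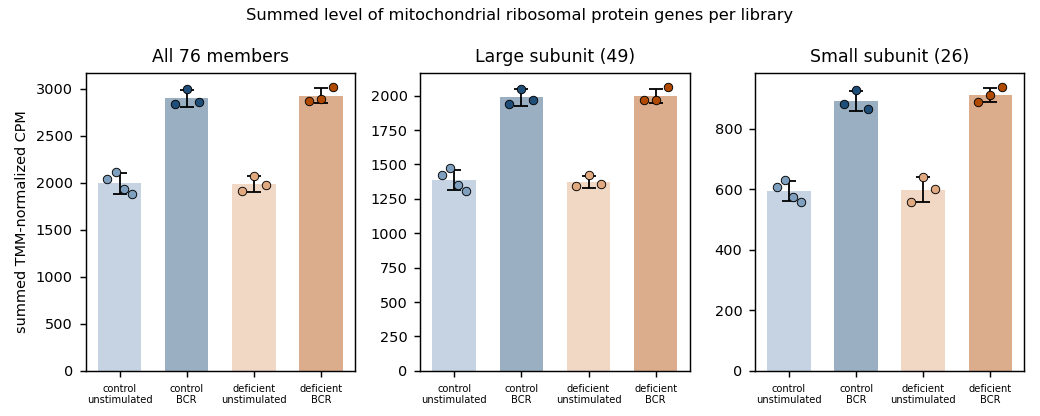
Summed TMM-normalized CPM (y axis) of all 76 members, the 49 large-subunit and the 26 small-subunit genes in the 4 groups. Points are libraries, bars are group means and error bars are SD. All 6 stimulated libraries lie above all 7 unstimulated ones, and control and deficient libraries overlap in each state.

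Levels of different members were compared per kilobase of annotated exon. In control unstimulated cells they ran from 1.492 to 42.92 CPM per kilobase, with a median of 11.07. The highest were Mrpl54 (42.92), Mrpl43 (40.24) and Mrpl10 (33.92), and the lowest were Mrpl33 (1.492), Mrps25 (1.881) and Mrps10 (1.946). This order depends on the length used. With the length of the principal transcript, a setting chosen after the data were seen, the highest were Mrpl52 (76.46), Mrpl54 (58.63) and Mrpl30 (50.91), and the lowest were Mrps25 (2.037), Mrpl47 (3.041) and Mrpl17 (3.234). Mrpl54 was among the 3 highest and Mrps25 among the 3 lowest by both lengths, and 6 members were among the 10 highest by both.

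After BCR stimulation of control cells, 51 of 76 members rose (67.1%) and 6 fell (7.89%) at an edgeR adjusted p under 0.05, whereas 28.5% of all tested genes were called higher and 31.8% lower. The median log2 fold change was 0.43 over the members and -0.128 over all tested genes. The rise exceeded 2-fold in 11 members, lay between 0.5 and 1 on the log2 scale in 22 and was under 0.5 in 18. The libraries of the 2 states did not overlap in 60 members (78.9%), against 63.5% of all tested genes. In deficient cells 54 members rose (71.1%) and 5 fell (6.58%), against 28.3% and 29.6% of tested genes. The median was 0.502, against -0.107 over all genes, and 64 members (84.2%) did not overlap between the states, against 62.0%. Without both libraries of animal 1, the control response had 60 rises and 5 falls, against 31.0% and 31.3% of all genes tested, and the deficient response had 54 and 3, against 28.2% and 26.7%.

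**Figure D2:**
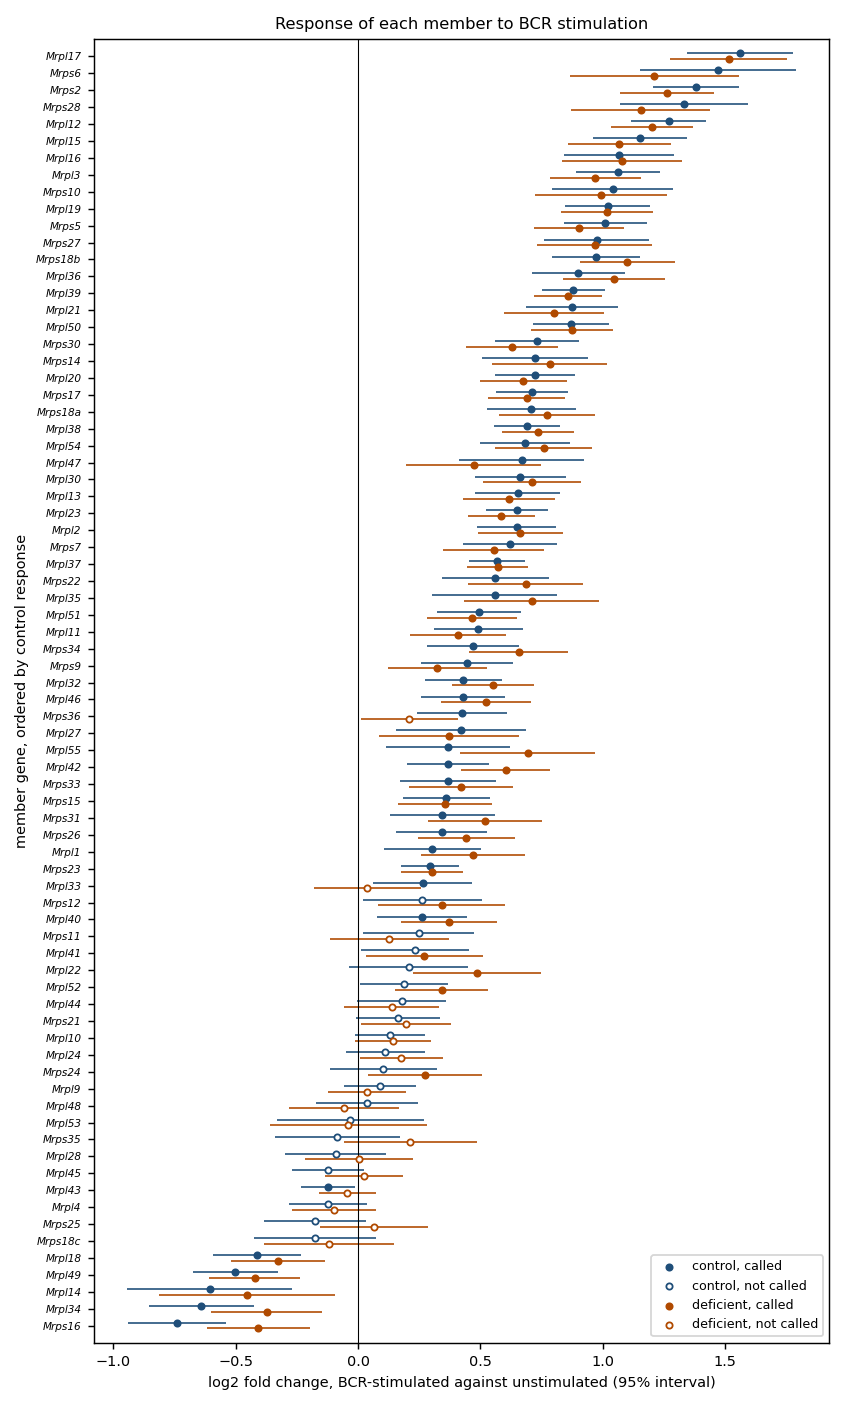
Log2 fold change after BCR stimulation (x axis) with its 95% interval for each of the 76 members (y axis, ordered by the control response), in control (blue) and deficient cells (orange). Filled points passed the edgeR test. In control cells the values run from -0.74 for Mrps16 to 1.56 for Mrpl17, and over the members the deficient values correlate with them at r = 0.969.

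Mrpl17, a large-subunit protein with a bacterial counterpart, showed the largest rise. Its level was 22.52, 27.45, 24.06 and 20.41 CPM in the control unstimulated libraries and 67.47, 74.47 and 66.99 CPM in the stimulated ones, a 2.95-fold rise (log2 1.56 ± 0.102 SE, edgeR adjusted p = 1.74e-09). In deficient cells it went from 21.44, 27.13 and 26.18 CPM to 64.18, 72.27 and 76.82 CPM (log2 1.51 ± 0.111). The stimulated libraries of both genotypes were far above all unstimulated ones. The Mrpl17 gene (ENSMUSG00000030879.10, mm10 chr7:105803206-105811099) shares no exon base with another annotated gene.

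Mrps6, a small-subunit protein, was the least abundant member by CPM in control unstimulated cells. It had 4.018, 5.268, 4.572 and 5.363 CPM there and 12.38, 13.41 and 14.22 CPM after stimulation (log2 1.47 ± 0.149, edgeR adjusted p = 3.29e-07). Deficient cells had 4.017, 5.48 and 6.116 CPM before and 12.62, 11.6 and 11.82 CPM after stimulation (log2 1.21 ± 0.163). The states did not overlap in either genotype. Mrps6 shares 305 exon bases with Gm49711 and 159 with Slc5a3, both coding genes on the same strand. Slc5a3 encodes a myo-inositol transporter, and part of the Mrps6 count may belong to these genes.

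Mrps2, a small-subunit protein with a bacterial counterpart, rose from 38.04, 38.16, 35.38 and 32.77 CPM to 93.85, 102.3 and 85.71 CPM in control cells (log2 1.38 ± 0.0833, edgeR adjusted p = 7.06e-10). In deficient cells its log2 change was 1.26 ± 0.0908. Mrps28, another small-subunit protein, rose by 1.33 ± 0.122 in control and 1.16 ± 0.133 in deficient cells on the log2 scale. Mrpl15, a large-subunit protein, rose by 1.15 ± 0.0903 and 1.07 ± 0.0981. None of these 3 genes had overlapping states in either genotype.

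The stalk of the large subunit, which recruits translation factors, is built on Mrpl10 and Mrpl11 and carries copies of Mrpl12, and of the 3 genes, Mrpl11 and Mrpl12 rose by edgeR in both genotypes. Mrpl12 went from 52.46, 52.41, 44.85 and 46.57 CPM to 114.5, 122.6 and 117.7 CPM in control cells (log2 1.27 ± 0.0721, edgeR adjusted p = 3.67e-10), with 1.20 ± 0.0786 in deficient cells. It shares 200 exon bases with a noncoding RNA on the opposite strand. Mrpl11 rose by 0.49 ± 0.0855 in control and 0.41 ± 0.092 in deficient cells. Mrpl10 had 60.57, 58.58, 59.51 and 53.11 CPM in unstimulated and 68.41, 62.48 and 59.29 CPM in stimulated control libraries, which overlapped (log2 0.13 ± 0.0679, edgeR adjusted p = 0.112). DESeq2 and limma called this Mrpl10 difference, at 0.202 (DESeq2 adjusted p = 0.0158) and 0.192 (limma adjusted p = 0.0206). Its difference in deficient cells was 0.14 ± 0.073 (edgeR adjusted p = 0.11), and it passed the test there with the animal as a block in edgeR (0.144, adjusted p = 0.0463) and by limma (0.173, adjusted p = 0.0487).

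Of 3 genes for proteins near the peptidyl transferase centre, where the peptide bond forms, all 3 were called higher by edgeR in both genotypes. Mrpl3 had 38.6, 39.93, 36.69 and 37.08 CPM in control unstimulated and 75.1, 86.12 and 77.27 CPM in stimulated libraries (log2 1.06 ± 0.08, edgeR adjusted p = 9.64e-09). Mrpl16 rose by 1.07 ± 0.106 in control and 1.08 ± 0.115 in deficient cells. Mrpl27 rose by 0.42 ± 0.124 and 0.37 ± 0.134, and the latter call was lost without deficient stimulated replicate 3 or without deficient unstimulated replicate 2 or 3.

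Of 4 genes for proteins around the exit of the peptide tunnel and at the anchor to the inner membrane, Mrpl23 passed the edgeR test in both genotypes and the other 3 in neither. It rose by 0.65 ± 0.0592 in control and 0.58 ± 0.064 in deficient cells. Mrpl24 differed by 0.11 ± 0.0749 (edgeR adjusted p = 0.215) in control and 0.18 ± 0.0803 (edgeR adjusted p = 0.0715) in deficient cells, and passed the test in deficient cells with the animal as a block in edgeR (0.182, adjusted p = 0.0245), by DESeq2 (0.21, adjusted p = 0.0403) and by limma (0.212, adjusted p = 0.0318). Mrpl44 differed by 0.18 ± 0.0849 (edgeR adjusted p = 0.0832) in control and 0.14 ± 0.091 in deficient cells. In control cells DESeq2 and limma called Mrpl44, at 0.248 (DESeq2 adjusted p = 0.0191) and 0.228 (limma adjusted p = 0.0178). For Mrpl45, the membrane anchor, control cells had 45.3, 45.75, 40.62 and 41.79 CPM before and 40.0, 40.63 and 38.77 CPM after stimulation. Deficient cells had 44.85, 43.33 and 42.76 CPM before and 42.09, 41.79 and 49.21 CPM after. The Mrpl45 differences, -0.12 ± 0.0698 and 0.02 ± 0.0744 on the log2 scale, did not pass the test, and the sign in deficient cells depended on stimulated replicate 3 and on the scaling.

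In the small subunit, Mrps12 of the decoding centre had 14.45, 16.43, 16.18 and 15.43 CPM in unstimulated and 17.32, 21.78 and 17.11 CPM in stimulated control libraries (log2 0.26 ± 0.114, edgeR adjusted p = 0.0586). Its states did not overlap in control cells. It passed the test there with the animal as a block in edgeR (0.251, adjusted p = 0.033), by DESeq2 (0.333, adjusted p = 0.0168) and by limma (0.292, adjusted p = 0.0206). In deficient cells Mrps12 was called by edgeR (0.34 ± 0.123, adjusted p = 0.026). Leaving out deficient stimulated replicate 3, deficient unstimulated replicate 1 or 2, or both libraries of animal 1 ended that deficient call. Mrps7, Mrps22, Mrps27 and Mrps34 rose in both genotypes. Their log2 changes were 0.62, 0.56, 0.97 and 0.47 in control cells and 0.55, 0.68, 0.97 and 0.66 in deficient cells. Mrps27 is a pentatricopeptide repeat protein, and Mrps34 is needed for the stability of the small subunit. Of the 2064 exon bases of Mrps34, 763 are shared with Nme3 on the same strand and 1309 with Mapk8ip3 on the opposite one. On the opposite strand, Mrps27 shares 506 exon bases with a noncoding gene, and Mrps7 shares 127 with Gga3 and 119 with Mif4gd. Part of these counts may belong to the neighbours.

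Of the 3 Mrps18 paralogs, Mrps18a and Mrps18b rose in both genotypes and Mrps18c passed the test in neither. Mrps18b and Mrps18c belong to the small subunit. Mrps18b went from 46.56, 55.14, 47.52 and 45.49 CPM to 94.18, 98.88 and 93.63 CPM in control cells (log2 0.97 ± 0.0841, edgeR adjusted p = 4.89e-08) and rose by 1.10 ± 0.0916 in deficient cells. It shares 638 of its 2089 exon bases with a noncoding gene on the opposite strand. Mrps18a rose by 0.71 ± 0.0853 and 0.77 ± 0.0924. Mrps18c had 15.48, 13.79, 14.77 and 16.09 CPM before and 15.01, 12.35 and 12.53 CPM after stimulation in control cells, which overlapped (log2 -0.18 ± 0.117, edgeR adjusted p = 0.212). Mrps30, the other protein of the large subunit named for the small one, rose by 0.73 ± 0.0808 and 0.63 ± 0.0875. Mrps36 rose in control cells by 0.42 ± 0.0868, and its difference in deficient cells was 0.21 ± 0.0934 (edgeR adjusted p = 0.0677). DESeq2 and limma called Mrps36 there too, at 0.246 (DESeq2 adjusted p = 0.0366) and 0.222 (limma adjusted p = 0.032).

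The genes that fell were few and fell less than the leading genes rose. Mrps16, a small-subunit protein with a bacterial counterpart, had 25.66, 25.3, 20.33 and 23.77 CPM in control unstimulated and 13.94, 15.2 and 13.51 CPM in stimulated libraries (log2 -0.74 ± 0.0937, edgeR adjusted p = 3.95e-06). In deficient cells it had 23.05, 26.08 and 24.42 CPM before and 17.85, 18.49 and 19.07 CPM after stimulation (log2 -0.41 ± 0.0983, edgeR adjusted p = 0.00204). Its unstimulated levels overlapped between genotypes, and its stimulated deficient libraries all lay above the stimulated control ones.

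Mrpl34, a large-subunit protein with a bacterial counterpart, had 19.06, 18.47, 16.95 and 17.82 CPM in control unstimulated and 11.18, 12.61 and 11.0 CPM in stimulated libraries (log2 -0.64 ± 0.101, edgeR adjusted p = 4.33e-05). In deficient cells its log2 change was -0.37 ± 0.107, and without deficient unstimulated replicate 2 it was -0.269 and did not pass the test (edgeR adjusted p = 0.0535). Mrpl49, a mitochondria-specific large-subunit protein, fell by 0.50 in control and by 0.42 in deficient cells on the log2 scale. Mrpl18 fell by 0.41 and by 0.33, the latter with an adjusted p of 0.0545 without animal 1.

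Mrpl14, which lies at the face between the subunits, had 10.47, 11.82, 9.813 and 8.143 CPM in control unstimulated and 6.337, 6.65 and 6.83 CPM in stimulated libraries (log2 -0.61 ± 0.158, edgeR adjusted p = 0.00341). Its fall in deficient cells, by 0.45 on the log2 scale, lost the test without deficient stimulated replicate 2 or 3 and without deficient unstimulated replicate 1 or 3. For Mrpl43 the log2 difference in control cells was -0.12 ± 0.0518 with an edgeR adjusted p of 0.0499, so that it was only just called, and it was not called under most other settings. Mrpl14, Mrpl18, Mrpl43 and Mrpl49 share 106, 141, 507 and 91 exon bases with the coding genes Tmem63b, Tcp1, Twnk and Syvn1 on the opposite strand. Mrps16 and Mrpl34 share none.

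**Figure D3:**
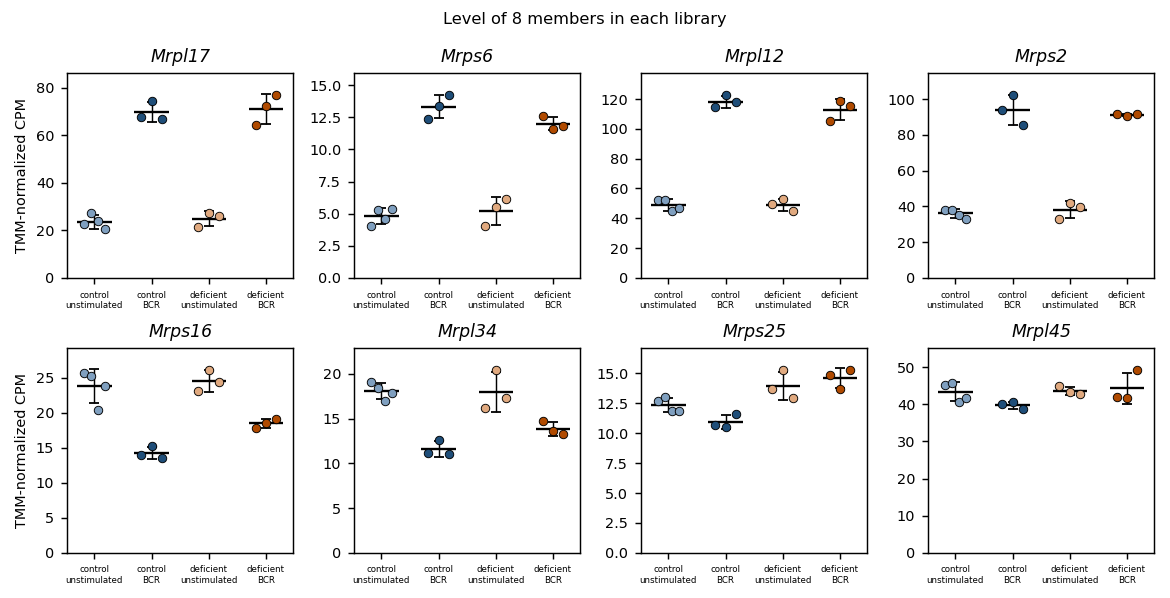
TMM-normalized CPM (y axis) of 8 members in each of the 13 libraries, by group. Points are libraries, lines are group means and error bars are SD. Mrpl17, Mrps6, Mrpl12 and Mrps2 are higher in all stimulated libraries, Mrps16 and Mrpl34 are lower in them, and Mrps25 is higher in the stimulated deficient than in the stimulated control libraries.

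Rises were found in every class of ribosomal member. Of the 46 members with a bacterial counterpart, 31 rose (67.4%) and 4 fell (8.7%) in control cells (median 0.525). Of the 29 without one, 19 rose (65.5%) and 2 fell (6.9%), with a median of 0.366. In deficient cells 33 rose (71.7%) and 4 fell (8.7%) among the former (median 0.552). Among the latter 21 rose (72.4%) and 1 fell (3.45%), with a median of 0.466. By subunit, 32 of 49 large-subunit (65.3%) and 18 of 26 small-subunit members (69.2%) rose in control cells, with medians of 0.43 and 0.405. Of all tested genes, 28.5% were called higher and 31.8% lower in control cells, and 28.3% and 29.6% in deficient cells. All 11 members that rose over 2-fold in control cells had a bacterial counterpart. Mrps27 and Mrps18b, which were classed as having none, lay just under that cut, at 0.97 on the log2 scale each. Mrps18b was so classed although its paralog Mrps18c was counted with a counterpart. In deficient cells 9 of the 10 members over 2-fold had a counterpart, and the other was Mrps18b at 1.10. The difference between these classes was not tested.

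The responses of the genotypes were then set side by side. Of the 76 members, 49 rose and 5 fell in both genotypes by edgeR, 14 were called in neither, and 0 were called in opposite directions. DESeq2 and limma left 10 uncalled in both, and each called Mrpl10, Mrpl24, Mrpl44, Mrps11 and Mrps21 in at least 1 genotype. Across the 76 members the log2 changes of the genotypes, which share no library, had a correlation of r = 0.969. Genes of one library share its depth, so this r is a description. Members that edgeR called in neither genotype had log2 differences of -0.18 to 0.25 in control cells, and besides those described above included Mrpl4, Mrpl9, Mrpl28, Mrpl48, Mrpl53, Mrps11, Mrps21, Mrps25 and Mrps35.

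By edgeR, Mrpl33 and Mrps36 were called higher in control cells and not in deficient ones (log2 0.26 and 0.42 in control), and Mrpl43 was called lower there. The reverse held for Mrpl22, Mrpl41, Mrpl52, Mrps12 and Mrps24. Their log2 changes were 0.48, 0.27, 0.34, 0.34 and 0.27 in deficient cells and 0.21, 0.23, 0.19, 0.26 and 0.1 in control cells. DESeq2 and limma each called Mrpl22, Mrpl41, Mrpl52 and Mrps12 higher in both genotypes and Mrps24 in deficient cells alone. The difference of the responses themselves passed the test in 0 members in either direction, with 0.00737% of all genes called higher and 0.0% lower by edgeR. With the animal as a block it called 48 genes higher and 20 lower (0.354% and 0.147%) and again 0 members. At an unadjusted p under 0.05 it held 1 member by edgeR, Mrps16, whose difference was 0.33 (95% interval 0.05 to 0.62, edgeR adjusted p = 1.0). That number was 5 with the block and 0 to 4 over the libraries left out, with 4 without control unstimulated replicate 4 or deficient unstimulated replicate 2 and 0 without control unstimulated replicate 1 or 2, control stimulated replicate 3, deficient unstimulated replicate 1 or deficient stimulated replicate 3. The next smallest p-values belonged to Mrpl42 (0.24) and Mrpl55 (0.32). DESeq2 called 0 members, where it called 0.169% of genes higher and 0.111% lower, and limma called 0, where it called 0.00813% and 0.0%. The 95% interval of the difference lay within 0.5 on the log2 scale, in either direction, for 64 of 76 members, and the outermost bounds were -0.73 and 0.70.

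The loss of Regnase-1 was next compared within each state. In unstimulated cells 0 members were called higher or lower by edgeR, where 0.125% and 0.199% of all genes were, and 1 member had an unadjusted p under 0.05. DESeq2 called 0 members (0.471% and 0.707% of genes), limma 0 (0.171% and 0.179%) and edgeR with sex as a term 0 (0.332% and 1.13%). The member with the unadjusted p under 0.05 was Mrpl32, a large-subunit protein, which control libraries held at 24.59, 24.09, 23.46 and 22.04 CPM and deficient ones at 19.31, 21.71 and 19.84 CPM (log2 -0.21 ± 0.0746, edgeR adjusted p = 0.398). Mrpl50 and Mrps5 followed, with -0.15 ± 0.0737 and 0.15 ± 0.0805. The median over the members was 0.012. The 95% interval lay within 0.5 on the log2 scale for 75 members, and the bounds ran from -0.54 to 0.45. The genotypes did not overlap in 2 members (2.63%), Mrpl18 and Mrpl32, against 8.72% of all genes.

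In stimulated cells edgeR again called 0 members, where 0.751% of all genes were called higher and 1.26% lower, and 4 members had an unadjusted p under 0.05. DESeq2 called 2 members higher, Mrps16 and Mrps25, where it called 1.27% of genes higher and 2.7% lower. Mrps25 was also called higher by limma (0.845% and 1.74% of genes) and by edgeR with sex as a term (1.16% and 2.6%). Mrps25, a mitochondria-specific small-subunit protein, stood at 10.69, 10.52 and 11.63 CPM in stimulated control libraries and at 14.87, 13.68 and 15.28 CPM in stimulated deficient ones (log2 0.42 ± 0.104, 95% interval 0.19 to 0.64, edgeR adjusted p = 0.0547). It shares 4590 exon bases with Nr2c2, a nuclear receptor gene on the opposite strand. For Mrps16, whose levels are given above, the difference was 0.38 ± 0.0992 (95% interval 0.17 to 0.59, edgeR adjusted p = 0.0689). Both lay outside the threshold of 0.05 by a small margin.

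Mrpl42, a mitochondria-specific large-subunit protein, stood at 33.25, 34.49 and 29.95 CPM without and at 38.49, 35.98 and 41.43 CPM with the floxed alleles after stimulation (log2 0.25 ± 0.0841, edgeR adjusted p = 0.202). The median difference over the members was 0.018. The 95% interval lay within 0.5 for 73 members, and the bounds ran from -0.49 to 0.64. The genotypes did not overlap in 17 members (22.4%), against 17.8% of all genes.

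**Figure D4:**
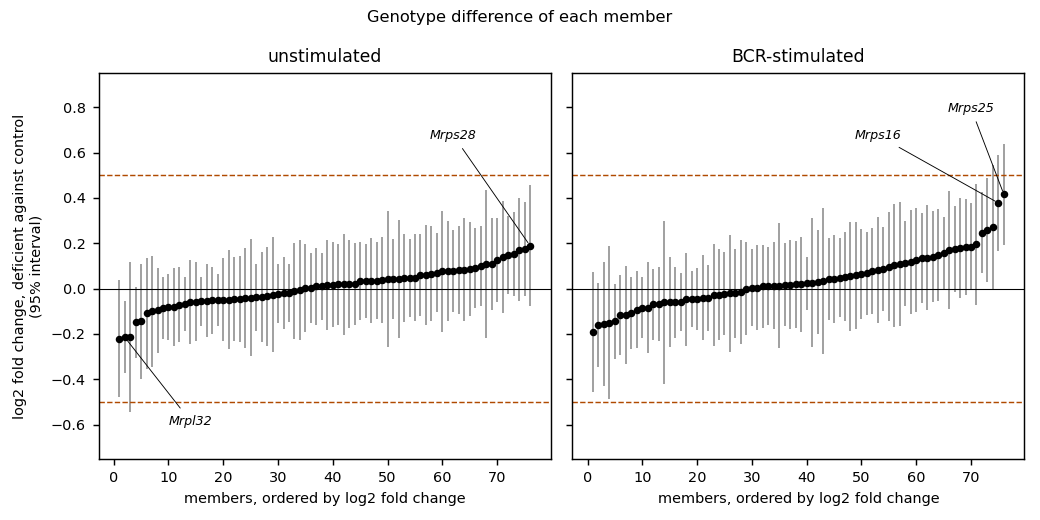
Log2 fold change of deficient against control cells (y axis) with its 95% interval for the 76 members, ordered by value (x axis), in unstimulated and stimulated cells. Dashed lines mark 0.5 in either direction. Values centre near 0 in both states, with Mrps25 and Mrps16 highest after stimulation at 0.42 and 0.38.

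Other genes of mitochondrial translation were set beside the members. Of 7 mitochondrial ribosomal proteins with other names, 4 rose (57.1%) and 0 fell in control cells (median 0.363). Of all tested genes, 28.5% were called higher and 31.8% lower there. Ptcd3, a pentatricopeptide repeat protein of the small subunit, rose from 58.68 ± 4.703 (n = 4) to 125.2 ± 4.275 CPM (n = 3), a log2 change of 1.09, while Chchd1 and Gadd45gip1 rose by 0.74 and 0.58. Mrp63, an older symbol of Mrpl57, rose by 0.36. Dap3, the GTP-binding protein of the small subunit, did not pass the test in control cells (0.02 ± 0.0663, edgeR adjusted p = 0.772), nor did Ict1 or Aurkaip1. Aurkaip1 was called higher in deficient cells (0.18, edgeR adjusted p = 0.0341).

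The lists that follow stand against 28.5% of all tested genes called higher and 31.8% lower in control cells. Of 24 factors that assemble the mitochondrial ribosome, 13 rose (54.2%) and 3 fell (12.5%) in control cells (median 0.212). Among them were the GTPase Noa1 (1.51), Wbscr16 (1.38) and the RNA-binding protein Fastkd2 (1.27). Among 15 translation and mRNA factors 8 rose (53.3%) and 2 fell (13.3%), with a median of 0.292. Lrpprc, which stabilises mitochondrial mRNAs, and Mrrf, which recycles ribosomes, were both at 1.24 and the elongation factor Gfm1 at 1.06. Among 19 mitochondrial tRNA synthetases 12 rose (63.2%) and 4 fell (21.1%; median 0.282), including Yars2 (1.23), Nars2 (1.19) and Rars2 (0.82). Among 17 genes of mitochondrial DNA expression and its regulators 10 rose (58.8%) and 3 fell (17.6%), with a median of 0.49. They included the coactivator Pprc1 (1.85), the mitochondrial helicase Peo1 (1.34) and Gabpb1 (1.02), a subunit of the ETS-family factor GABP. Peo1 is the older symbol of Twnk, the neighbour of Mrpl43.

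Cytosolic ribosomal protein genes and nuclear genes of oxidative phosphorylation showed fewer rises. Of 77 cytosolic ribosomal protein genes tested, 18 rose and 8 fell in control cells (23.4% and 10.4%, median 0.041), with Rpl34, Rps27l and Rpl30 at 1.20, 0.95 and 1.09. Many cytosolic ribosomal protein genes have near-identical processed copies, so their counts are uncertain. Rpl34 and Rpl30 had means of only 3.752 and 2.477 CPM in unstimulated and 8.604 and 5.266 CPM in stimulated control libraries. Of 72 oxidative phosphorylation genes 28 rose and 14 fell (38.9% and 19.4%, median 0.102), with Uqcrq, Cox5a and Atp5b at 1.21, 0.72 and 0.71. In deficient cells the numbers of rises and falls were 20 and 4 for the cytosolic list and 30 and 9 for the oxidative phosphorylation list. The difference between lists was not tested. Between genotypes, Gabpb1 was the only gene of these lists that was called, at 123.7 ± 5.582 CPM in stimulated control libraries and 104.5 ± 5.737 CPM in stimulated deficient ones (n = 3 each; log2 -0.24 ± 0.0568, edgeR adjusted p = 0.0384).

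**Figure D5:**
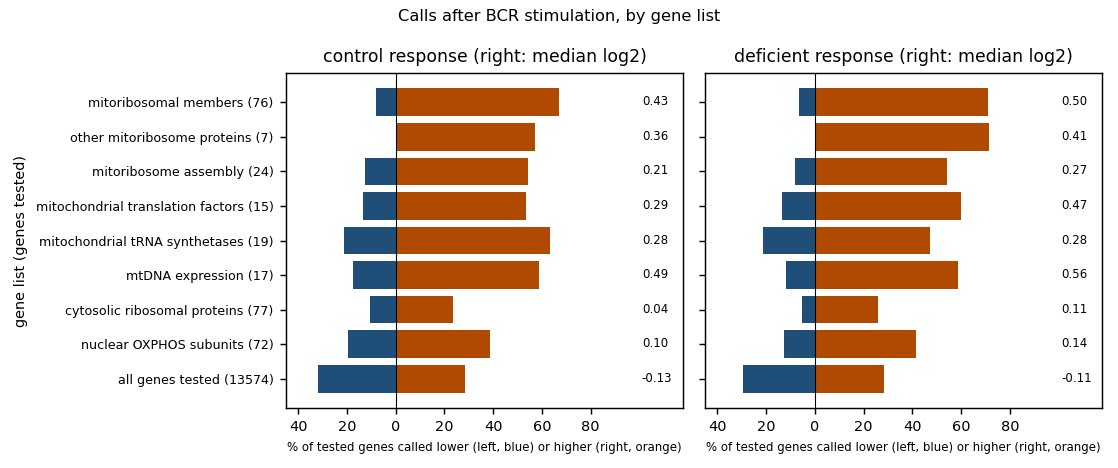
Percentage of tested genes called higher (orange, right) or lower (blue, left) after BCR stimulation in control and deficient cells, on the x axis, for the members, 7 other gene lists and all tested genes (y axis), with the median log2 fold change at the right. Of the members 67.1% rose in control cells, against 23.4% of cytosolic ribosomal protein genes and 28.5% of all genes.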

How the data were processed

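Splenic B cells of mice were profiled by RNA-seq in 13 libraries. For each, the authors deposited whole-number read counts by gene symbol. TopHat, HTSeq and the mm10 build are named, without versions, per the submitters' processing notes. A table of log2 values was also deposited by the authors, and DESeq2 is named for it in those notes. Not given in the sources used here are the log2 transformation, the annotation, the strand setting and the handling of multi-mapping reads. From 23337 symbols, 1 with a missing cell was dropped. The labels number the libraries within groups without saying that they are separate animals. Reads of sex-linked genes show both sexes in every group, so each holds more than 1 animal, and where libraries share an animal p-values measure technical spread.

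The counts were fitted in edgeR 4.0.16 (R 4.3.3) by a robust quasi-likelihood model with 1 mean for each of the groups, after filterByExpr (minimum count 10) and TMM scaling. The model covered 13574 genes in 13 libraries with 9 residual degrees of freedom. A call needs an adjusted p (Benjamini-Hochberg, over all tested genes) under 0.05. SE is the log2 fold change over the root of F, and CPM are TMM-normalized. Depth was 21407724 to 33244755 counts per library, and the floor of 3 counts covers counting error only. GENCODE vM21 (mm10) gave positions and lengths for all 76 members, and RefSeq the promoters.

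Members, gene lists and the naming rule were chosen with earlier results of these data known. Named were the 8 largest called rises and falls of each response, called members of each other comparison (if none, the 3 smallest p), members with set roles, the 3 highest and lowest levels per kilobase, and, in each other list, the 3 smallest p and up to 3 called between genotypes. Other members named were chosen after their values were seen.

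To check pairing, deviations from group means were correlated over 9658 genes. Libraries with the same number and genotype gave r of 0.73, 0.49 and 0.57 (control) and 0.83, 0.76 and 0.62 (deficient) between states, and were treated as pairs in a fit with the animal as a block (4 residual degrees of freedom). Between genotypes r lay between -0.59 and -0.06, which gives no pairing. The replicate block of the genotype comparisons nevertheless used the replicate number. Other settings tried were size factors of DESeq2 or upper-quartile scaling within edgeR, DESeq2 1.42.0 itself, limma 3.58.1 on the deposited log2 values, other filters, a fit of the compared groups alone, the replicate block, a sex term and omission of libraries.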

Additional observations from a re-analysis of the deposited data

Results flagged for a closer look

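Among the 4 control unstimulated libraries, 3 members had 1 library far from the others by Dixon's ratio, out of 77 results tested. Chance gives such a library in about 1 of 20 groups. Mrpl38, a large-subunit gene, had 57.08 CPM in replicate 2, against 50.26, 50.29 and 51.02 CPM in the others. Mrpl52 had 37.02 CPM in replicate 2, against 30.04, 30.32 and 30.48 CPM. Mrpl9 had 40.48 CPM in replicate 3, against 43.32, 43.39 and 43.43 CPM.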

How the results depend on the processing

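The median of the members after stimulation of control cells, 0.43, was 0.50 with DESeq2's size factors in edgeR, 0.359 with upper-quartile factors and 0.501 with DESeq2, while the median of all genes moved from -0.128 to -0.058 with size factors and -0.199 with upper-quartile factors. The median in deficient cells, 0.502, was 0.408 with upper-quartile factors. By DESeq2 the control response had 59 rises and 5 falls among the members (4269 and 3987 of 13574 genes). The deficient response had 57 and 5 (4067 and 3802 genes). Limma gave 59 and 5 (3947 and 3599 of 12301 genes) and 58 and 5 (3770 and 3484). Upper-quartile factors gave 50 and 9 (3575 and 4843 of 13574 genes) and 50 and 7 (3438 and 4660). The 5 falls in deficient cells became 3 without both libraries of deficient animal 1. Between genotypes after stimulation, the 0 members called higher became 2 with upper-quartile factors and 2 with DESeq2 (Mrps16 and Mrps25 each time), and 1, Mrps25, with a filter of 1 CPM in 3 libraries, with sex as a term and with limma. Of all genes, upper-quartile factors called 146 higher and 218 lower out of 13574, and that filter 108 and 181 out of 11844. Leaving out each library gave 0 to 1 members. The 1 was Mrps16 without control unstimulated replicate 3, where 85 of 13469 genes were called higher and 141 lower. The Mrpl45 difference in deficient cells, 0.02, was -0.071 with upper-quartile factors and ran from -0.056 to 0.091 over the libraries left out. The causes were not tested. With the replicate block the control response had 52 rises and 6 falls among the members and the deficient response 56 and 5. Among all 13574 genes the block called 3991 higher and 4864 lower in control cells, and 4181 and 4719 in deficient cells. The block moved no count of called members by over 1.5 times. For the responses and their difference the block was the animal. It raised the members at an unadjusted p under 0.05 from 1 to 5 for the difference of responses. It called Mrps12 in control and Mrpl10 and Mrpl24 in deficient cells. For the genotype comparisons the block was the replicate number shared across genotypes, for which the check above gave no pairing. There the number before stimulation went from 1 to 2, from which nothing is concluded. The ratio of the highest to the lowest level per kilobase was 28.77, and 37.54 with the principal transcript. For single named members, 1521 recomputed values kept direction and side of the threshold, 48 newly passed it, 36 no longer passed it and 2 reversed. Restricting the fit to the groups compared changes nothing for the difference of responses, which uses all groups.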
